A study of Oryza sativa with 13 samples.

Results

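DNA methylation was compared between the embryo and the endosperm of rice seeds at 6 days after pollination (DAP), in the cultivar Zhonghua11 (ZH-11, japonica). The 2 groups were ZH-11 embryo 6 DAP and ZH-11 endosperm 6 DAP, with 1 library each and no replicates, out of 13 samples in the series. Both tissues came from plants grown in a phytotron with a 12 h light period at 28 °C and a dark period at 22 °C, and were dissected by hand. How many seeds were pooled is not given in the sources used here. Methylated fragments were captured with an antibody against 5-methylcytosine and sequenced (MeDIP-seq), and each library was deposited as a list of enriched stretches, called peaks. All 53391 peaks of the embryo list and all 36871 of the endosperm list were taken, together 90262 of the 302642 peaks in the 7 ZH-11 lists. The ZH-11 lists of other ages served to look up the same places in other libraries, and the 93-11 samples were not analysed here.

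In plants, cytosines are methylated in CG, CHG and CHH contexts (H is any base but G), mostly in transposons and other repeats, and MeDIP does not separate these contexts. The embryo and the endosperm arise from the same double fertilisation. The endosperm comes from the central cell, in which DNA glycosylases remove methylation from parts of the maternal genome before fertilisation. The endosperm feeds the embryo and is not passed on to the next generation.

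The embryo library was deeper, with 8231245 tags (aligned reads) left after filtering, against 7302523 in the endosperm library, a ratio of 1.13. Peaks held 59.0% of the embryo tags and 57.9% of the endosperm tags. The listed peak with the fewest tags had 26 tags in embryo and 24 in endosperm, so a place without a listed peak has no known tag number. The lists carry no gene expression, so the tissue labels could be checked against peaks alone. Of the 6 DAP embryo peaks, 85.3% and 87.7% overlapped peaks of embryo at 3 and 9 DAP, while the 4 endosperm lists matched 49.7% to 53.7% of them. Of the 6 DAP endosperm peaks, 73.0% to 75.8% overlapped peaks of the 3 embryo lists and 78.8%, 82.9% and 82.7% overlapped those of endosperm at 2, 3 and 9 DAP. Both lists therefore overlapped lists of their own tissue more often than lists of the other tissue, by a small margin in endosperm. The embryo lists hold 51509 to 55242 peaks and the endosperm lists 32986 to 36871. A longer list is met more readily, which widens the difference for embryo peaks and narrows it for endosperm peaks.

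Many embryo peaks had no counterpart in the endosperm. Of the 53391 embryo peaks, 24702 (46.3%, 95% exact Clopper-Pearson interval 45.8 to 46.7) had no endosperm peak overlapping by 1 bp or more. Of the 36871 endosperm peaks, 8950 (24.3%, 23.8 to 24.7) had no embryo peak. These intervals cover counting error only. They treat peaks as independent, which neighbouring peaks need not be, and each tissue is 1 library. For the intervals on tag numbers given below, PCR reads without molecular identifiers are likewise not independent molecules. The embryo-only peaks covered 20.2 Mb and held 20.7% of the embryo tags, and the endosperm-only peaks covered 8.69 Mb and held 8.50% of the endosperm tags. The embryo list was the longer one, and list length and tissue cannot be told apart here. With the 36871 highest-scoring peaks of each list the shares were 41.04% in embryo and 41.13% in endosperm. Lists of equal length nearly have to give equal shares, so the cut does not show what the excess of embryo-only peaks comes from.

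Peaks found in 1 tissue were shorter and held fewer tags than peaks found in both. The median length was 731 bp for embryo-only peaks and 1049 bp for the other embryo peaks, and 823 bp for endosperm-only peaks and 1075 bp for the other endosperm peaks. A longer peak meets the 1 bp limit of overlap more readily, so this difference is in part set by the definition. The median level was 7.05 tags per 1000000 filtered tags (RPM) for embryo-only peaks, against 10.9 RPM for overlapping embryo peaks. The medians in endosperm were 7.26 RPM for endosperm-only peaks and 12.2 RPM for overlapping peaks. Per kb of peak the tissues differed more. Embryo-only peaks, at a median of 9.49 RPM per kb, lay close to overlapping embryo peaks at 10.01, whereas endosperm-only peaks had 8.78 RPM per kb and overlapping endosperm peaks 11.1.

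Embryo-only peaks also lay farther from any peak of the other tissue. The median distance from an embryo-only peak to the nearest endosperm peak was 3410 bp, and from an endosperm-only peak to the nearest embryo peak it was 1928 bp. The nearest peak of the other tissue was over 10 kb away for 3838 embryo-only peaks (15.5%) and 388 endosperm-only peaks (4.34%). It was within 1 kb for 4957 embryo-only peaks (20.1%) and 2841 endosperm-only peaks (31.7%). The embryo list has more peaks, which shortens the distances measured from endosperm peaks.

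In both lists the share of tissue-only peaks fell as peak strength rose, and it fell further in endosperm. The score deposited with each peak is minus 10 times the base-10 logarithm of its p-value against the local background. Among peaks with a score from 50 to 100, 57.0% were embryo-only in the embryo list and 42.8% were endosperm-only in the endosperm list. From 100 to 200 the shares were 45.3% in embryo and 22.6% in endosperm, and from 200 to 300 they were 38.3% and 9.11%. At 300 or more, 2019 of 7158 embryo peaks (28.2%) and 150 of 6350 endosperm peaks (2.36%) were missing from the whole list of the other tissue. Scores from 50 to 100 held 11251 of the 24702 embryo-only and 5611 of the 8950 endosperm-only peaks. The embryo list is longer, so an endosperm peak meets an overlap more readily.

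**Figure D1:**
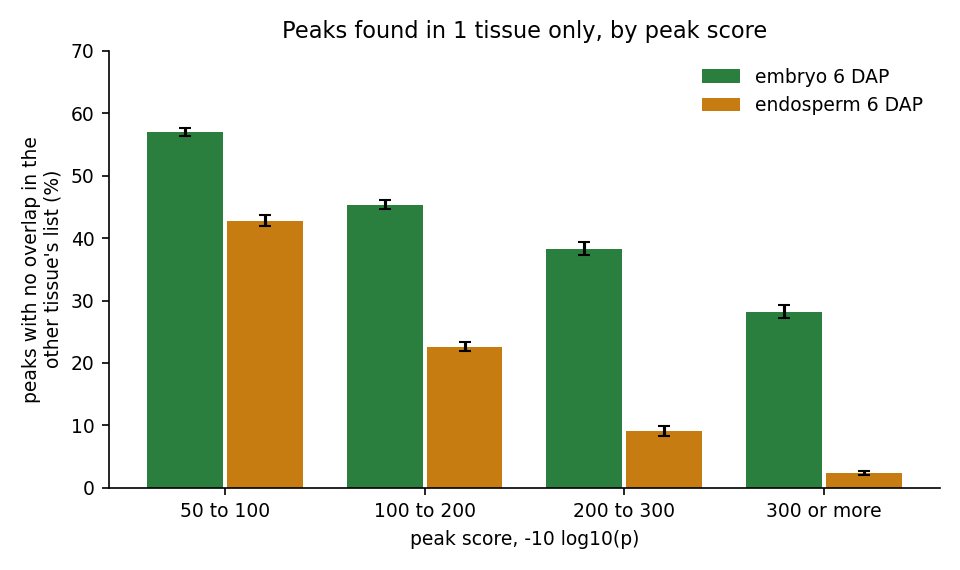
Share of the peaks of each 6 DAP list (y axis, percent) that have no overlapping peak in the list of the other tissue, by the peak's own score (x axis), for embryo (green) and endosperm (orange), with 95% exact intervals that cover counting error only. The share is 57.0% in embryo and 42.8% in endosperm for the weakest peaks, and 28.2% in embryo and 2.36% in endosperm for the strongest.

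By length, 82.3% of the 3006 embryo peaks under 500 bp were embryo-only, against 46.0% of the 1374 endosperm peaks of that length that were endosperm-only. From 2000 to 3000 bp the shares were near each other, 8.96% in embryo (95% exact interval 7.87 to 10.1) and 8.55% in endosperm (7.59 to 9.58). At 3000 bp or more the share was 15.3% (12.8 to 18.0) among 780 peaks of the embryo list and 6.29% (5.25 to 7.47) among 1924 peaks of the endosperm list.

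The 3 and 9 DAP libraries were not used to define these peaks, and embryo-only peaks recurred in them more often than endosperm-only peaks did. Of the 24702 embryo-only peaks, 78.3% overlapped a peak of embryo at 3 DAP and 86.4% one of embryo at 9 DAP, and 18051 (73.1%, 72.5 to 73.6) did both. Of the 8950 endosperm-only peaks, 59.9% overlapped a peak of endosperm at 3 DAP and 66.1% one at 9 DAP, and 4339 (48.5%, 47.4 to 49.5) did both. The 3 and 9 DAP embryo lists are longer than the endosperm lists. With every list limited to its best-scoring peaks, at most 36871, the shares were 70.01% for embryo-only and 57.9% for endosperm-only peaks, so the order of the tissues was the same. For peaks that overlapped the other tissue at 6 DAP, recurrence at both ages was 85.1% in embryo and 83.1% in endosperm.

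The other tissue had peaks at some of these places at other ages. Embryo-only peaks of 6 DAP overlapped a peak in 8.89%, 11.8% and 11.3% of cases in endosperm at 2, 3 and 9 DAP. Endosperm-only peaks of 6 DAP overlapped a peak in 26.3% of cases in embryo at 3 DAP and 21.7% at 9 DAP. No endosperm list of any age had a peak at 19555 of the embryo-only peaks (79.2%), and no embryo list of any age had one at 5835 of the endosperm-only peaks (65.2%). The first share counts 4 endosperm lists and the second 3 embryo lists. Both conditions together, recurrence at 3 and 9 DAP and absence from every list of the other tissue, held for 14245 embryo-only peaks (57.7%) and 2239 endosperm-only peaks (25.02%).

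**Figure D2:**
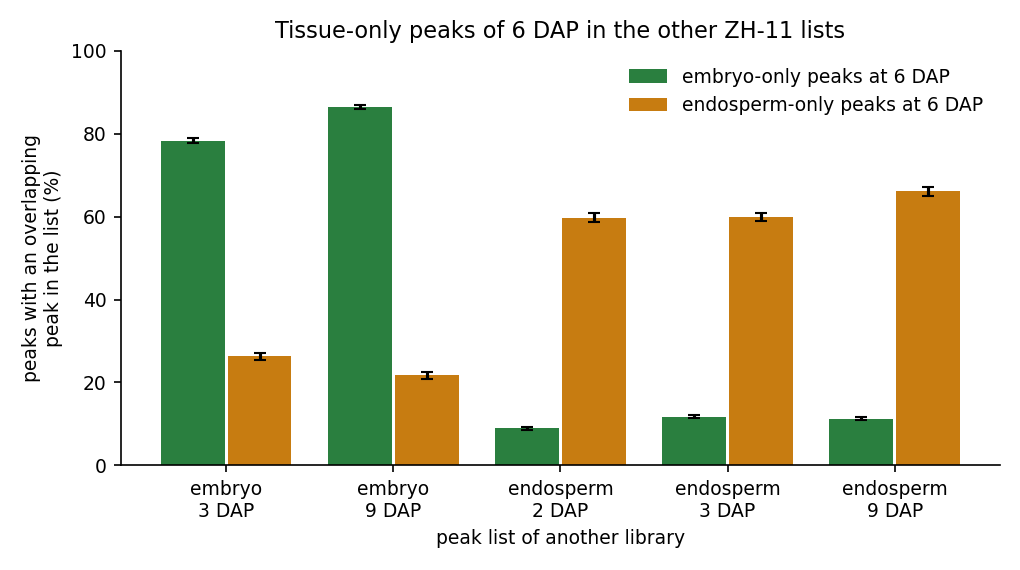
Share of the 24702 embryo-only (green) and 8950 endosperm-only (orange) peaks of 6 DAP that overlap a peak in each of the other 5 ZH-11 lists (x axis), in percent (y axis), with 95% exact intervals for counting error. Embryo-only peaks recur in 78.3% and 86.4% of cases in embryo at 3 and 9 DAP, and endosperm-only peaks in 59.8%, 59.9% and 66.1% of cases in endosperm at 2, 3 and 9 DAP.

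Strong embryo-only peaks recurred almost without exception. Of the 2019 with a score of 300 or more, 2018 overlapped peaks of embryo at both 3 and 9 DAP, a share of 99.95% beside 99.92% for embryo peaks of that score shared with endosperm. Of the 150 endosperm-only peaks with such a score, 122 (81.3%, 74.2 to 87.2) recurred in endosperm at both ages, beside 99.1% for endosperm peaks of that score shared with embryo. In the weakest class, from 50 to 100, the shares were 48.9% for embryo-only and 37.4% for endosperm-only peaks. Of the 2019 strong embryo-only peaks, 1515 (75.04%) were in no endosperm list of any age, and of the 150 strong endosperm-only peaks, 86 (57.3%) were in no embryo list.

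The 2 embryo-only and 2 endosperm-only peaks with the highest scores serve as examples and were chosen after their values were seen. Coordinates are those of the lists, whose genome build is not given in the sources used here, so the genes at these places were not analysed. The first embryo-only peak lay on chromosome 3 from 24229993 to 24231124, with 249 tags or 30.3 RPM, and had 210 tags (26.0 RPM) in embryo at 3 DAP and 238 tags (28.3 RPM) at 9 DAP. Endosperm at 9 DAP had a peak of 42 tags (5.63 RPM) there, and endosperm at 2 and 3 DAP had none. The second lay on chromosome 1 from 34666639 to 34667701, with 202 tags (24.5 RPM) at 6 DAP and 177 tags in embryo at both 3 and 9 DAP (22.0 and 21.0 RPM). Endosperm listed 29 tags there at 2 DAP and no peak at 3 or 9 DAP. Both places thus had embryo levels above 20 RPM at all 3 ages, and in each a single endosperm list had a peak, at 5.63 RPM in the first and 4.24 RPM in the second.

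The first endosperm-only peak lay on chromosome 1 from 37943329 to 37944263, with 151 tags (20.7 RPM), and had 20.2 RPM in endosperm at 2 DAP, no peak at 3 DAP and 11.9 RPM at 9 DAP. The second lay on chromosome 4 from 19135520 to 19137369, with 210 tags (28.8 RPM), and had 21.2, 16.8 and 21.8 RPM in endosperm at 2, 3 and 9 DAP. No embryo list had a peak at either place. The first of them was the less steady across ages.

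The tissue-only places with the most tags were long peaks with a low fold enrichment. The highest embryo-only level, 128 RPM (1051 tags, 95% exact Poisson interval 120 to 136 RPM), was on chromosome 8 from 28423230 to 28431298, a peak of 8069 bp. The next were 113 RPM on chromosome 10 from 14244767 to 14251280, and 102 RPM at a place on chromosome 6 (28246371 to 28253771) and at another on chromosome 5 (29827638 to 29834086). The highest endosperm-only levels were 152 RPM on chromosome 2 from 25033879 to 25041276, 147 RPM on chromosome 11 (11149189 to 11156726), and 146 and 142 RPM at separate places of chromosome 10 (5106363 to 5113571, 11220899 to 11227059). All 8 were between 6161 and 8069 bp long, and their deposited fold enrichments were at most 4.44, against medians of 6.76 for all embryo-only and 6.01 for all endosperm-only peaks. The scores were 52.2 to 155 for the 4 embryo-only and 167 to 197 for the 4 endosperm-only places, beside medians of 108 for all embryo-only and 84.2 for all endosperm-only peaks. Such lengths come near the 10 kb over which the local background was taken from the same library.

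At 6 of these 8 places the other tissue had a listed peak at another age. The chromosome 10 place from 14244767 had 113 and 58.6 RPM in embryo at 3 and 9 DAP, and 209 and 184 RPM in endosperm at those ages, above the embryo. The chromosome 8 place had 144 and 120 RPM in embryo at 3 and 9 DAP and 177 RPM in endosperm at 9 DAP. The endosperm-only place on chromosome 2 had 67.7 and 56.3 RPM in embryo at 3 and 9 DAP. The exceptions were the chromosome 6 place, with no peak in any endosperm list, and the chromosome 10 place from 5106363, with no peak in any embryo list. Neither was steady in its own tissue. The chromosome 6 place had 34.4 and 32.6 RPM in embryo at 3 and 9 DAP. The chromosome 10 place had no peak in endosperm at 2 and 3 DAP and 134 RPM at 9 DAP.

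Merging touching or overlapping peaks of both lists gave 61070 regions. Of these, 24701 (40.4%) were embryo-only, 8950 (14.7%) were endosperm-only and 27419 (44.9%) had a peak in both tissues. Regions of both tissues had a median length of 1273 bp and made up 42.8 of the 71.6 Mb in regions. Most of them, 25795 (94.1%), were made of 1 embryo and 1 endosperm peak. A further 1128 had 2 or more embryo peaks against 1 endosperm peak, and 377 had 1 embryo peak against 2 or more endosperm peaks.

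Where a single peak of each tissue met, the places were nearly the same. The summits were a median of 46 bp apart (quartiles 17 and 151 bp), 68.9% of pairs had them within 100 bp and 3.06% over 1000 bp apart. The overlap was a median of 80.1% of the joint length. The embryo peak lay inside the endosperm peak in 7816 pairs (30.3%), the endosperm peak lay inside the embryo peak in 6661 pairs (25.8%), and the rest were staggered. Median lengths were 1044 bp for the embryo peak and 1058 bp for the endosperm peak of a pair.

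In regions with a peak in both tissues the embryo tag level was lower on the whole. The median was 11.3 RPM in embryo and 12.5 RPM in endosperm, and the median log2 ratio, embryo over endosperm, was -0.28 (quartiles -0.70 and 0.27). The embryo level was above the endosperm level in 35.3% of regions. RPM is a share of the tags of a library, and tags in tissue-only peaks lower the share left for shared places. Overlapping peaks held 38.3% of the embryo tags and 49.4% of the endosperm tags. How far this accounts for the lower embryo RPM was not tested. Split into its parts, the median log2 ratio was -0.03 for covered length and -0.20 for tags per covered kb. The median density was 10.03 RPM per kb in embryo and 11.1 RPM per kb in endosperm.

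A difference of 2-fold or more was called in 5777 regions (21.1% of 27419), 2288 higher in embryo (8.34%) and 3489 higher in endosperm (12.7%). With 1 library for each tissue, these are counts past a fold and not tests. The balance turned with the scaling. After centring on the median, 3669 regions were higher in embryo (13.4%) and 1736 higher in endosperm (6.33%).

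**Figure D3:**
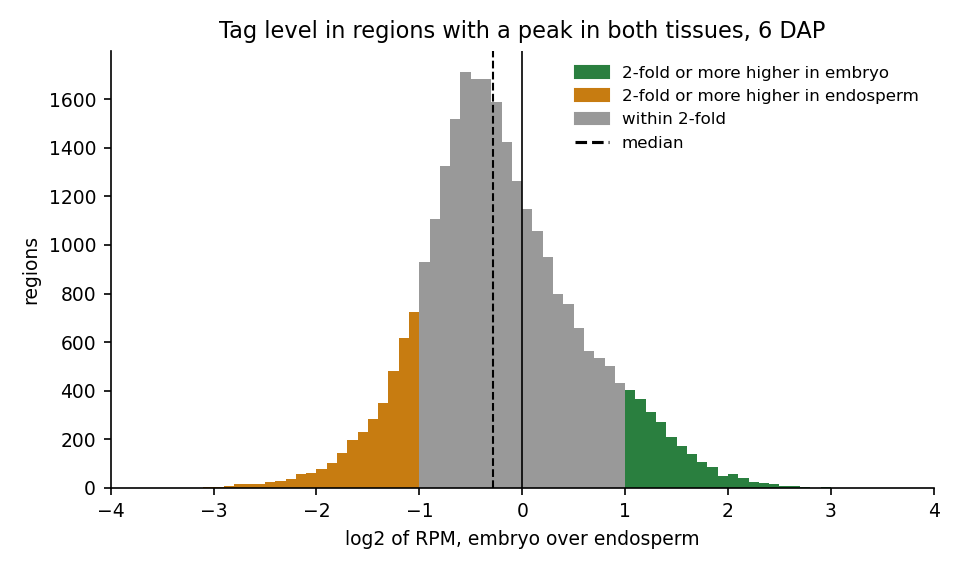
Number of regions (y axis) by the log2 ratio of RPM, embryo over endosperm (x axis, bins of 0.1), for the 27419 regions with a peak in both tissues at 6 DAP. The median (dashed line) lies at -0.28, with 2288 regions at or past 2-fold toward embryo (green) and 3489 toward endosperm (orange).

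The sides of the distribution differed in how the tags were spread. Regions higher in embryo had medians of 15.3 RPM in embryo and 5.61 RPM in endosperm, with covered lengths of 1161 bp and 732 bp and densities of 13.4 and 7.82 RPM per kb. Regions higher in endosperm had medians of 8.99 RPM in embryo and 24.2 RPM in endosperm, with covered lengths of 1028 bp and 1926 bp and densities of 8.62 and 12.9 RPM per kb. Among the 2288 higher in embryo, 45.3% were denser by 1.5-fold or more with lengths within 1.5-fold, and 32.0% were longer by 1.5-fold or more with densities within 1.5-fold. Among the 3489 higher in endosperm the order was the other way, with 28.9% denser alone and 49.6% longer alone.

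Long and tag-rich regions leaned to the endosperm. In regions under 1000 bp the median log2 ratio was -0.01, with 9.66% called higher in embryo and 3.41% higher in endosperm. In regions of 3000 bp or more it was -0.92, with 1.49% and 43.9%. Those 2080 long regions had a median of 30.7 RPM in embryo and 55.6 RPM in endosperm. Ranked by mean log2 RPM, the lowest quintile had a median of -0.01 and the highest one -0.58. Regions in which 2 or more embryo peaks met 1 endosperm peak had a median of -0.59, with 3.46% higher in embryo and 19.9% higher in endosperm. Those with 1 embryo peak against 2 or more endosperm peaks had a median of -0.12, with 7.16% and 8.75%. Length, peak number and the tag levels of the same 2 libraries helped to define these classes. The lean is therefore in part set by how they were chosen.

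Level differences of 6 DAP were seen again in the libraries of 3 and 9 DAP, which were not used to call them. The shares were larger at 9 than at 3 DAP, and so were those among all measured regions. Among the 2288 regions higher in embryo, 1741 had peaks of both tissues at 3 DAP, and 59.2% of these were again at least 2-fold higher in embryo, beside 6.74% of all 23303 regions measured at that age. At 9 DAP it was 69.1% of 1580, beside 9.14% of all 21998. Among the 3489 regions higher in endosperm, 33.6% of the 2894 measured at 3 DAP were again 2-fold higher in endosperm, beside 8.39% of all, and 60.1% of the 2599 measured at 9 DAP, beside 15.3%. A 2-fold difference in the opposite direction was found in at most 7 regions of any of these sets. Of all 2288 regions higher in embryo, 23.2% and 30.3% had a peak in the embryo list alone at 3 and 9 DAP. Among all 27419 regions of both tissues these shares were 6.97% and 9.56%. The endosperm list alone had a peak in 11.0% and 18.2% of all 3489 regions higher in endosperm, beside 5.49% and 7.98% of all regions.

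The regions with the largest differences all combined a long peak in 1 tissue with a short one in the other. On chromosome 8 from 11604162 to 11607480, embryo had 347 tags (42.2 RPM) over 3319 bp and endosperm 26 tags (3.56 RPM) over 490 bp, a log2 ratio of 3.57 (95% exact interval 2.99 to 4.20, counting error only). At 3 and 9 DAP embryo had 39.1 and 38.8 RPM there and endosperm no listed peak. On chromosome 2 from 1586850 to 1589872, embryo had 314 tags (38.1 RPM) and endosperm 37 tags (5.07 RPM), a log2 ratio of 2.91 (2.42 to 3.45), and both tissues were close to these levels at 3 and 9 DAP. The other 2 were on chromosome 1, from 40003567 to 40005655 with a log2 ratio of 2.91 and from 5326373 to 5328668 with 2.82.

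Toward endosperm the largest difference was on chromosome 1 from 8599529 to 8603995, where embryo had 43 tags (5.22 RPM) over 804 bp and endosperm 495 tags (67.8 RPM) over 4467 bp, a log2 ratio of -3.70 (-4.18 to -3.25). Endosperm had 58.5, 65.1 and 58.0 RPM there at 2, 3 and 9 DAP, and embryo 12.8 and 6.89 RPM at 3 and 9 DAP. On chromosome 11 from 12288676 to 12293189 embryo had 45 tags over 829 bp and endosperm 426 tags over 4514 bp (log2 ratio -3.42). On chromosome 9 from 10641456 to 10645619 embryo had 33 tags over 479 bp and endosperm 308 tags over 4126 bp (-3.40). There the log2 ratio was -3.11 for covered length and -0.29 for tags per covered kb. On chromosome 7 from 1042583 to 1046013 embryo had 41 tags over 638 bp and endosperm 302 tags over 3431 bp (-3.05). Embryo tags outside the listed peaks are not known at these places. In all 4 places the endosperm level was above the embryo level at 3 and 9 DAP as well.

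Along the chromosomes, embryo peaks covered more than endosperm peaks on all 12, with 55.6 Mb in embryo and 47.3 Mb in endosperm in all, a ratio of 1.17. The ratio of covered length, embryo over endosperm, was highest on chromosome 3 at 1.39, where embryo peaks covered 5.62 Mb and endosperm peaks 4.05 Mb. It was 1.31 on chromosome 1, 1.29 on chromosome 2 and 1.25 on chromosome 6. The other 8 chromosomes lay between 1.05 and 1.13, with the lowest on chromosome 12, at 4.06 Mb in embryo and 3.86 Mb in endosperm. The number of embryo-only regions ran from 55.2 per Mb on chromosome 11 to 79.8 per Mb on chromosome 3, and that of endosperm-only regions from 18.5 per Mb on chromosome 3 to 28.2 per Mb on chromosome 10. Chromosome 3 thus had the most embryo-only and the fewest endosperm-only regions per Mb. The median log2 RPM ratio of regions in both tissues ran from -0.13 on chromosome 3 to -0.39 on chromosome 12.

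Within chromosomes the 2 tissues had different profiles. The 12 chromosomes were divided into 367 complete bins of 1 Mb. Embryo coverage was the more even, from 30.7 to 238 kb per bin with a median of 153 kb and quartiles of 131 and 170 kb. Endosperm coverage ran from 21.5 to 289 kb with a median of 118 kb and quartiles of 89.9 and 163 kb. Embryo covered more in 266 bins and endosperm in 101. The embryo exceeded the endosperm by 1.5-fold or more in 97 bins, and the endosperm exceeded the embryo by as much in 1.

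Bins in which endosperm covered more often adjoined each other. On each chromosome the longest unbroken stretch of such bins was taken, and the 12 stretches held 79 of the 101 bins. On chromosome 4 it was 14 bins, from 2000001 to 16000000, with 2027 kb covered in embryo and 2415 kb in endosperm. On chromosome 10 it was 10 bins, from 1 to 10000000, with 1681 kb in embryo and 1864 kb in endosperm. Chromosome 11 had 9 bins from 8000001, chromosome 5 had 8 bins from 8000001 and chromosome 9 had 7 bins from 1. On chromosomes 1, 2 and 3 the stretches were 6, 3 and 2 bins, starting at 15000001, 13000001 and 18000001, and held all such bins of these chromosomes. On chromosomes 6, 7, 8 and 12 the stretches held fewer of them, with 4 of 6, 5 of 8, 6 of 11 and 5 of 10 bins. The ratio in the 12 stretches was 0.809 to 0.919 at 6 DAP. In the libraries of 3 and 9 DAP, which did not choose them, all 12 were below 1 too, at 0.878 to 0.966 and 0.799 to 0.907. The stretches were picked as the longest in the 6 DAP values. How many bins would adjoin from their frequency alone was not computed, so clustering of these bins was not tested.

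With all chromosomes laid over each other by relative length, the ratio was 1.27 in the first 10%, was 0.932 and 0.936 between 30% and 50%, and was 1.65 in the last 10%. Embryo-only regions numbered 67.1 per bin in the first 10%, 45.1 between 40% and 50% and 82.8 between 80% and 90%. Endosperm-only regions took the opposite course, with 19.97 per bin in the first 10%, 31.7 between 30% and 40% and 15.7 in the last.

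**Figure D4:**
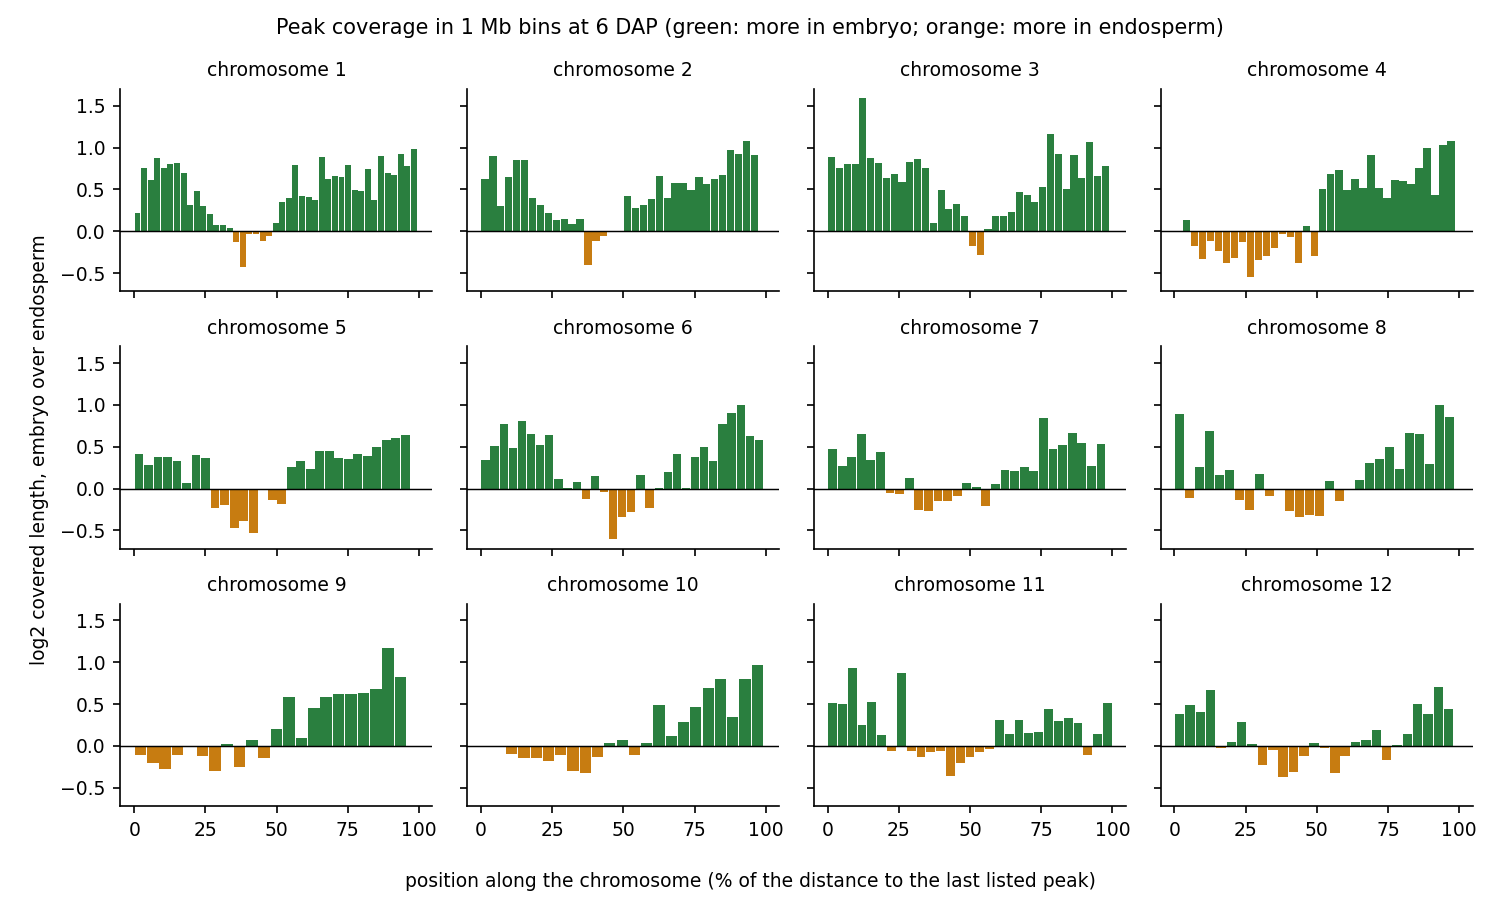
Log2 ratio of the length covered by peaks, embryo over endosperm (y axis), in 367 bins of 1 Mb on the 12 chromosomes at 6 DAP, against the position along the chromosome in percent of the distance to the last listed peak (x axis). Green bars mark the 266 bins with more coverage in embryo and orange bars the 101 with more in endosperm, 79 of which lie in the longest stretch of their chromosome, toward the start on chromosomes 4, 9 and 10.

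The same bins stood out at the other ages. Of the 266 bins with more embryo coverage at 6 DAP, 251 (94.4%) had more at both 3 and 9 DAP, beside 261 of all 367 bins (71.1%). Of the 101 with more endosperm coverage, 74 had more at 3 DAP, 90 at 9 DAP and 73 (72.3%) at both, beside 79, 102 and 75 (20.4%) of all 367 bins. Across the 367 bins the ratio at 6 DAP had a Spearman rho of 0.970 with that at 3 DAP and 0.967 with that at 9 DAP (Pearson r of the log2 ratios 0.969 and 0.966). These pairs share no library, but the bins share their sequence and mappability, and the values are a description across bins.

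With bins ranked by both tissues, embryo covered more in the peak-poorer quintiles and endosperm more in the richest. Bins were ranked by mean coverage in the 3 and 9 DAP libraries of both tissues. The endosperm libraries of those ages helped to set the ranking, so the ratios of the end quintiles are in part set by it. In the peak-poorest quintile embryo peaks covered 108 kb per Mb and endosperm peaks 73.7 kb per Mb, a ratio of 1.47. The ratio was 1.48, 1.32 and 1.07 in the next 3 quintiles. In the richest it was 0.911, with 180 kb per Mb in embryo and 198 kb per Mb in endosperm. Embryo covered more in 66 of 74 bins of the poorest quintile and in 14 of 74 bins of the richest. With peaks of a fold enrichment of 5 or more alone, the ratio of the richest quintile was 1.13. With bins ranked by the embryo libraries of 3 and 9 DAP, the poorest and richest quintiles were at 1.30 and 0.990. The endosperm excess in the richest quintile thus depended on the setting.

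Tissue-only regions and tag levels also differed between the poorest and the richest quintile. Embryo-only regions made up 49.6% of the regions in the poorest quintile (95% exact interval 48.6 to 50.6) and 26.6% (25.9 to 27.4) in the richest. Endosperm-only regions made up 12.97% (12.3 to 13.7) and 18.5% (17.8 to 19.2). The numbers of embryo-only and endosperm-only regions were 4830 and 1264 in the poorest quintile and 3493 and 2423 in the richest. In regions of both tissues the median log2 RPM ratio was -0.12 in the poorest and -0.47 in the richest quintile. The share called higher in embryo was 11.9% in the poorest and 3.03% in the richest, and the share called higher in endosperm 9.48% and 18.2%. The course was not steady from the poorest quintile on. In the second quintile the embryo-only share was 49.2%, the endosperm-only share 11.5% and the median log2 RPM ratio -0.09. The shares called higher in embryo and in endosperm were 13.1% and 8.80% there.

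**Figure D5:**
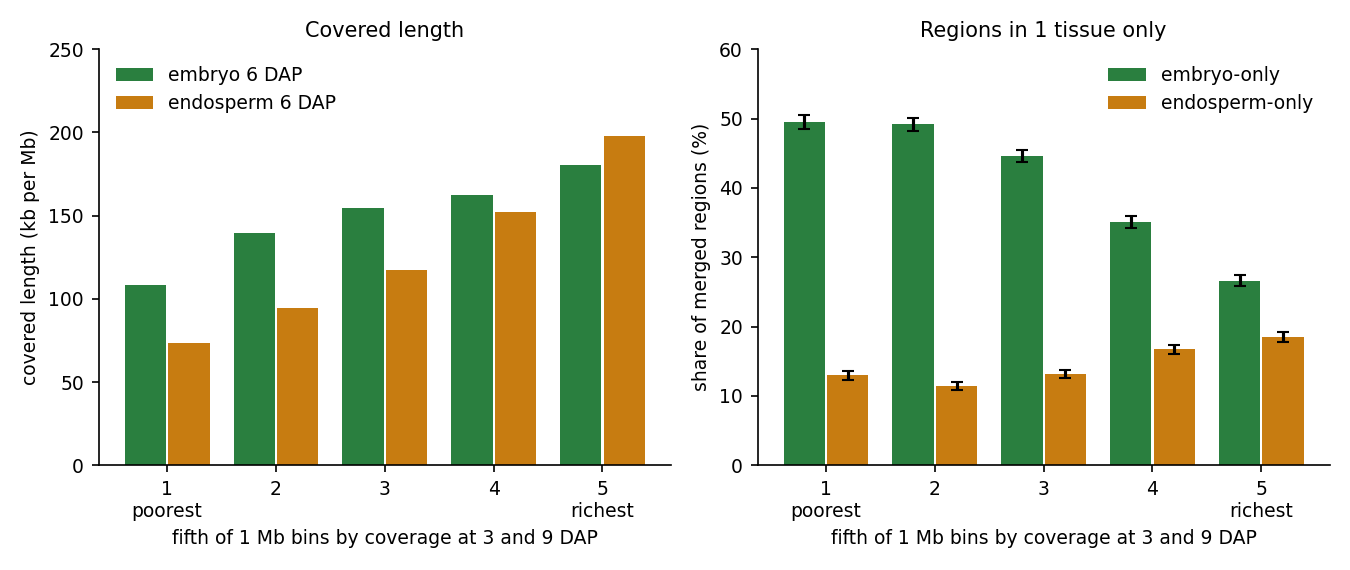
Left, length covered by peaks in kb per Mb (y axis) in embryo (green) and endosperm (orange) at 6 DAP, for quintiles of 1 Mb bins ranked by their coverage at 3 and 9 DAP (x axis). Right, share of merged regions (y axis, percent, with 95% exact intervals) found in embryo or endosperm only. Embryo coverage is 108 kb per Mb and endosperm coverage 73.7 kb per Mb in the poorest quintile, and 180 and 198 kb per Mb in the richest, while the embryo-only share drops to 26.6%.

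The bin with the highest ratio, 3.01, was on chromosome 3 from 4000001 to 5000000. Embryo peaks covered 136 kb and endosperm peaks 45.2 kb of it, and it held 125 embryo-only regions, the most of any bin, 7 endosperm-only regions and 37 of both tissues. Its ratio was 2.83 at 3 DAP and 2.97 at 9 DAP. The next were chromosome 9 from 20000001 to 21000000, with 137 kb in embryo and 60.7 kb in endosperm (2.25), and chromosome 3 from 28000001 to 29000000, with 145 kb and 64.7 kb (2.25). At the other end, with a ratio of 0.657, stood chromosome 6 from 14000001 to 15000000, with 68.4 kb in embryo and 104 kb in endosperm. It was followed by chromosome 4 from 9000001 to 10000000, with 127 kb in embryo and 186 kb in endosperm (0.684), and chromosome 5 from 12000001 to 13000000, with 162 kb and 234 kb (0.694). The chromosome 6 bin belonged to the peak-poorest quintile, unlike the other 2. All 6 bins were on the same side of 1 at 3 and 9 DAP.

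Embryo-only regions came in runs about as often as regions of both tissues, and more often than endosperm-only regions, which were fewer. Along the chromosomes, 47.3% of embryo-only regions stood in runs of 3 or more with no other region between them, as did 12.4% of endosperm-only regions and 46.6% of regions of both tissues. Single regions made up 28.8% of embryo-only, 63.8% of endosperm-only and 28.1% of shared regions. These shares depend on how frequent a class is, 40.4%, 14.7% and 44.9% of all regions. The shares to be had from frequency alone were not computed, so clustering was not tested. The longest run held 19 embryo-only regions on chromosome 3 from 4755106 to 4872692, within the bin of the highest ratio. Over these 118 kb, embryo had 21, 19 and 21 peaks at 3, 6 and 9 DAP, and endosperm had 1, 2, 0 and 1 at 2, 3, 6 and 9 DAP. The next, on chromosome 8 from 649553 to 777428, held 18, with 13, 18 and 16 peaks in embryo and 1, 1, 0 and 1 in endosperm. Both stretches were thus almost free of endosperm peaks at every age sampled. The longest run of endosperm-only regions, 10 on chromosome 7 from 6394028 to 6449864, had 2, 0 and 1 embryo peaks at 3, 6 and 9 DAP and 8, 6, 10 and 6 endosperm peaks at 2, 3, 6 and 9 DAP.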

How the data were processed

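The authors deposited 1 peak list per library. Bowtie2 and MACS are named, without their roles, in the submitters' processing notes. Per the file headers, MACS 1.4.2 called peaks on each library alone with no control, a p-value limit of 1e-05, an effective genome size of 360 Mb, at most 1 tag at a position, 200 bp fragments and a local background over 10 kb. The sources used here give no genome build. In the deposited lists the tags of a peak are whole counts of reads, the deposited score is minus 10 times log10 of the p-value, and the deposited fold enrichment is a ratio to the local background. Score and fold are the authors' values and describe single peaks. Peak length in bp is another deposited value.

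Peaks overlapped when they shared 1 bp. Touching or overlapping peaks of the 2 lists were merged into regions. A region's RPM summed the tags of all peaks of 1 library within it, per 1000000 filtered tags, and 2-fold was the limit for a call. Bins of 1 Mb ended at the last complete bin before the last peak of any list, and unplaced sequences were left out of bins, runs and named places. Named places were, by rule, the 4 of highest RPM for each tissue-only class, the 4 of highest and lowest log2 ratio among regions with at least 50 tags, the 3 bins of highest and lowest ratio and the 2 longest embryo-only runs. The longest endosperm-only run, the stretches of bins, the classes of score and length, and the highest-scoring peaks were added after the values were seen. The comparison and its measures were chosen with earlier results of these data known. With 1 library per tissue no test was made. Python 3.11.15, numpy 2.4.6, pandas 2.3.3 and scipy 1.17.1 were used, and the overlap and level steps were tested on simulated lists. Libraries were prepared with 15 PCR cycles, per the labels' protocols.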

Additional observations from a re-analysis of the deposited data

How the results depend on the processing

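Every value rests on 1 library for each tissue, so the spread between seeds, dissections and library preparations is unknown, and depth and tissue cannot be told apart. No paired analysis was possible because each group is 1 library without a replicate number. No library could be left out for the same reason. Of 55 recomputed values for 12 results, 20 stayed within the interval of the main value (counts within 1.5-fold), 34 moved and 1 reversed. For the quintile ratios, which are of summed coverage, that interval was the one of the median ratio of single bins. The causes were not tested except where the construction of a setting gives them.

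With a score of 100 or more, the shares without a counterpart were 52.1% in embryo and 32.9% in endosperm, regions in both tissues numbered 15775, their median log2 ratio was -0.32, 721 were 2-fold higher in embryo and 1839 in endosperm, the poorest and richest quintiles were at 1.39 and 0.839, and recurrence was 68.5% for embryo-only and 44.3% for endosperm-only peaks. With a fold enrichment of 5 or more, the shares were 53.2% and 30.8%, the median was -0.20, 2080 regions were higher in endosperm, recurrence was 68.7% and 42.9%, and the richest quintile reversed to 1.13. With lists cut to equal length by score, the shares were 41.04% and 41.13%, embryo-only regions numbered 15129 and endosperm-only regions 15165, the median was -0.19, 2195 regions were higher in endosperm, the quintiles were at 1.10 and 0.661, and recurrence was 70.01% and 57.9%. Here the embryo list lost its weaker peaks by construction.

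Counting a peak as shared only when peaks of the other tissue covered 50% or more of it gave 48.1% and 28.7%. The median was -0.31 per 1000000 tags inside peaks and -0.27 in regions of 1 peak each. Centring gave 3669 regions higher in embryo and 1736 in endosperm. Bins ranked by the 3 and 9 DAP embryo libraries gave 1.30 and 0.990. Throughout, the median stayed below 0, the poorest quintile stayed above 1, and recurrence stayed higher for embryo-only peaks.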

Other observations

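Some places called tissue-only at 6 DAP had peaks of the other tissue both before and after. Of the embryo-only peaks, 1442 (5.84%) overlapped endosperm peaks at both 3 and 9 DAP, and of the endosperm-only peaks, 1179 (13.2%) overlapped embryo peaks at both ages. They were longer than peaks never listed in the other tissue, with medians of 913 bp against 705 bp for embryo-only peaks and 958 bp against 781 bp for endosperm-only peaks. Peaks of 3000 bp or more made up 1.18% of the first kind and 0.251% of those never listed in endosperm, and 3.73% and 0.737% among endosperm-only peaks. Their median scores were 104 for embryo-only and 96.7 for endosperm-only peaks, against 109 and 81.4 for peaks never listed in the other tissue. A longer peak shares 1 bp with another list more readily, so the length differences are in part set by the definition.

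On chromosome 11 a bin of low endosperm coverage stood between bins in which the tissues were nearly equal, a contrast noticed in the values and not tested. From 7000001 to 8000000 embryo peaks covered 112 kb and endosperm peaks 61.1 kb (ratio 1.83, and 1.76 and 1.86 at 3 and 9 DAP). The bin before it had 106 kb in embryo and 111 kb in endosperm, and the bin after it 174 kb and 182 kb.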
